A study of Mus musculus with 8 samples.

Results

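The nuclear factor I (NFI) family consists of *Nfia*, *Nfib*, *Nfic* and *Nfix*, and these 4 genes were taken by symbol from the 41325 genes listed in each library. NFI proteins bind DNA as homodimers or heterodimers at the palindrome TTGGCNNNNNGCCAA, in which N is any base, and also at a single arm of it. The 4 proteins share a conserved amino-terminal DNA-binding and dimerization domain and differ more in their carboxy-terminal regions, which activate or repress transcription. NFIA and NFIB are known from glial, lung and fat cell differentiation, NFIX from muscle and neural stem cells, and NFIC from tooth root and mesenchymal cells.

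RNA-seq was performed in the multipotent mouse line C3H10T1/2, whose mesenchymal stem cells (MSCs) can form fat cells, in shControl cells and in cells that stably express shRNA against *Kdm4d* (shKDM4D), *Nfib* (shNFIB) or *Mll1* (shMLL1, the gene listed as *Kmt2a*). All 4 lines were sequenced at day 0, 2 days after confluence, and at day 5 of adipogenic differentiation with insulin, dexamethasone and isobutylmethylxanthine until day 2 and insulin alone for 2 more days. The knockdown lines were puromycin-resistant clones made with the vector pLKO.1, and the labels do not say which clone of each was sequenced, so the knockdown and the clone cannot be told apart. There was 1 library per condition, 8 libraries in all, and the 3 knockdown lines share the same shControl libraries. Expression is given as RPKM, the reads of a gene normalized to its exon length and to the mapped reads of the library, of which there were between 15800000 and 38200000. Because there are no replicates, no p-value is given, and all intervals are 95% intervals of the reads that cover counting error only. They are exact, except that those of sums over members are approximate. As a description of size, a gene is called higher or lower when its RPKM differed by more than 2-fold.

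The labelled cell type was checked against marker genes. Of 9 mesenchymal markers, 7 or 8 had an RPKM over 1 in each library, with a summed RPKM of 1584 to 2184. *Nt5e* (CD73) stayed at or below an RPKM of 0.0218 throughout. *Thy1* (CD90) had 1995 and 1309 reads in shControl cells at day 0 and day 5 and 1352 and 1267 reads in shMLL1 cells, but at most 9 reads in shKDM4D and shNFIB cells, so these lines differ in a defining marker before induction. Of 10 markers of haematopoietic, endothelial, epithelial, muscle and neural cells, at most 1 had an RPKM over 1 in a library, and the highest value was 1.64 for *Cd68*. The summed RPKM of 7 adipocyte markers was 4.09 to 10.9 at day 0. At day 5 it was 777 in shControl cells, and 12.0, 12.3 and 38.6 in the shNFIB, shMLL1 and shKDM4D lines. In these bulk samples, fewer cells of a type and less RNA per cell cannot be told apart.

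In GRCm38, *Nfia* lies at chr4:97772734-98118874 on the plus strand, *Nfib* at chr4:82290173-82705750 on the minus strand, *Nfic* at chr10:81396186-81455635 on the minus strand and *Nfix* at chr8:84699876-84800344 on the minus strand. All 4 are annotated as protein coding. To show how alike the paralogs are in the part that encodes the DNA-binding domain, and how they can still be told apart by reads, their second exon is printed in part. This coding exon has 532 bases in each of the 4 genes, and 351 of them (66.0%) are the same in all 4. Bases 9 to 128 of the exon in GENCODE M21 are given in the direction of transcription, from chr4:97783090-97783209 (*Nfia*), chr4:82498642-82498761 (*Nfib*), chr10:81420671-81420790 (*Nfic*) and chr8:84772188-84772307 (*Nfix*). Capitals mark the 87 of 120 bases that are the same in all 4 genes.
Nfia: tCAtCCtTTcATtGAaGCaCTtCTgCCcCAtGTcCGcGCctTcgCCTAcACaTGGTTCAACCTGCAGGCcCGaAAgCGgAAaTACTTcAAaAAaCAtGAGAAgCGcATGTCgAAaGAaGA
Nfib: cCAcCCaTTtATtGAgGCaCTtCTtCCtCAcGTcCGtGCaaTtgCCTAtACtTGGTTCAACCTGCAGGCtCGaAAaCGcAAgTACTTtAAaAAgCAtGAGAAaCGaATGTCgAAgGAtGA
Nfic: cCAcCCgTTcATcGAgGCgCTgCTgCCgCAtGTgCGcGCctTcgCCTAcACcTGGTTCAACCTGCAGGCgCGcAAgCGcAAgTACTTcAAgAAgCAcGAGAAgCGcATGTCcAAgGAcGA
Nfix: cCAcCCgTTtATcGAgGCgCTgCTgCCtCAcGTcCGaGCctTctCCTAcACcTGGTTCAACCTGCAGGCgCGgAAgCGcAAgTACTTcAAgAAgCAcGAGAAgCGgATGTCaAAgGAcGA

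The longest stretch of this exon that is the same in all 4 genes has 17 bases. Over the whole exon, the identity between pairs of genes lay between 75.8% (*Nfia* and *Nfic*) and 82.0% (*Nfic* and *Nfix*). Over all annotated transcripts, the longest run that any pair shares has 32 bases (*Nfic* and *Nfix*), followed by 25 bases (*Nfia* and *Nfib*), so a longer read that matches without a mismatch belongs to 1 member. Exons of other genes overlap at most 1.86% of the exon bases of a member, which is the case of *G430095P16Rik* on the opposite strand of *Nfix*. The NFI palindrome itself was looked for on both strands of the RefSeq promoter windows of GRCm38.p6. It was found in 12 of 32851 windows (0.0365%). The sequence TTGGCA, which is an arm followed by A and can lie inside the palindrome, was found in 4640 (14.1%). Neither was found in the 6 windows of *Nfia*, *Nfic* and *Nfix*, and *Nfib* was not matched in this table.

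The 4 members were expressed at very different levels per exon length. In every library *Nfia* was the lowest and *Nfib* the next, and *Nfic* and *Nfix* were the highest. Together *Nfic* and *Nfix* made up between 79.0% and 95.9% of the summed RPKM of the family. *Nfic* was above *Nfix* in both shNFIB and both shMLL1 libraries and in shControl cells at day 0, and below it in both shKDM4D libraries and in shControl cells at day 5. All of these neighbours within a library differed by more than counting error. Among the 11513 expressed genes, those whose RPKM exceeded 1 in any library, *Nfic* and *Nfix* ranked between percentiles 89.7 and 94.7, *Nfib* between 25.5 and 83.1 and *Nfia* between 18.5 and 42.8.

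**Figure D1:**
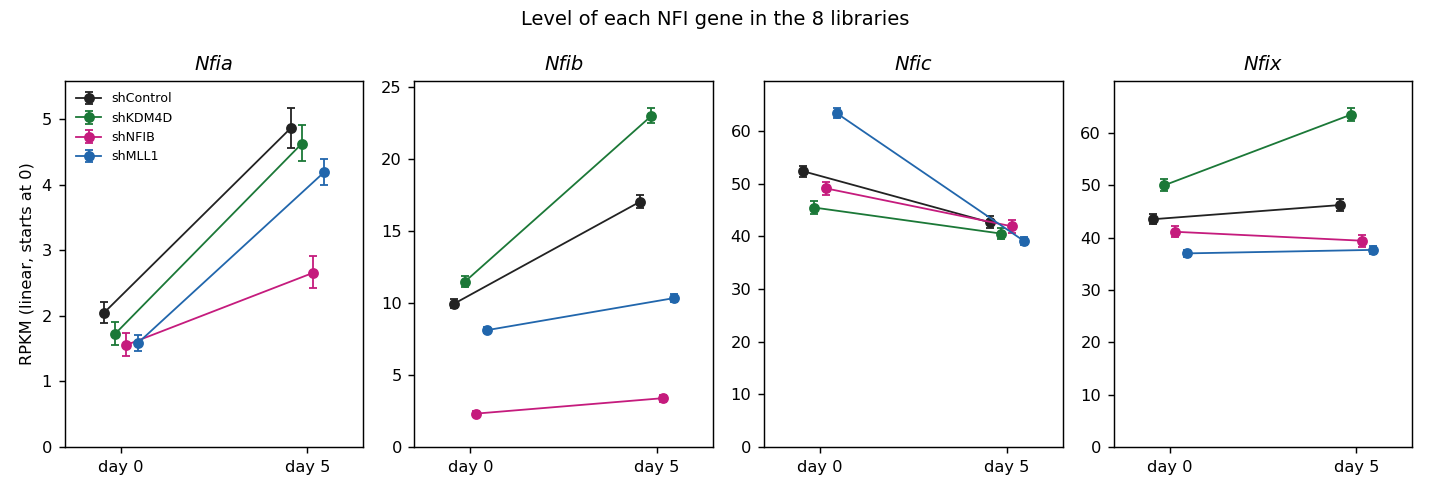
RPKM of each NFI gene (y axis, linear and starting at 0, with its own range in each panel) at day 0 and day 5 (x axis) in the 4 lines. Points are single libraries, bars are exact 95% intervals of the reads (counting error only), and lines join the days of a line. *Nfib* lies between 2.31 and 3.38 in shNFIB cells and between 8.10 and 23.0 in the other libraries.

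*Nfib*, the target of the shRNA in shNFIB cells, was examined first. At day 0 and day 5 its RPKM was 2.31 and 3.38 in shNFIB cells, 9.92 and 17.0 in shControl, 8.10 and 10.3 in shMLL1 and 11.5 and 23.0 in shKDM4D cells. These values rest on 645 to 7430 reads. Both shNFIB libraries were the lowest of the 8, and *Nfib* had the widest range of the family, 9.95-fold between its lowest and highest library. In the order of levels, only shControl cells at day 0 and shMLL1 cells at day 5 were neighbours that counting error does not separate. Day 0 and day 5 overlapped, since shKDM4D cells at day 0 had more *Nfib* RNA than shMLL1 cells at day 5.

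*Nfia* had an RPKM at day 0 and day 5 of 1.55 and 2.65 in shNFIB cells, 2.04 and 4.86 in shControl, 1.58 and 4.19 in shMLL1 and 1.72 and 4.63 in shKDM4D cells. Every library of day 5 was above every library of day 0, with shNFIB cells as the lowest of day 5. At day 0, the shNFIB, shMLL1 and shKDM4D libraries, neighbours in that order, were not separated by counting error, and neither were shKDM4D and shControl cells at day 5. *Nfia* was covered by 316 to 1740 reads and is therefore the least precise of the 4.

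*Nfic* had an RPKM at day 0 and day 5 of 49.2 and 41.9 in shNFIB cells, 52.4 and 42.7 in shControl, 63.4 and 39.2 in shMLL1 and 45.5 and 40.5 in shKDM4D cells. Every library of day 0 was above every library of day 5. At day 5 the shKDM4D, shNFIB and shControl libraries were not separated from their neighbours by counting error. The range over the 8 libraries was 1.62-fold.

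*Nfix* had an RPKM at day 0 and day 5 of 41.1 and 39.4 in shNFIB cells, 43.5 and 46.2 in shControl, 37.0 and 37.7 in shMLL1 and 50.0 and 63.5 in shKDM4D cells. Here the lines, rather than the days, took separate ranges, with shMLL1 cells lowest, then shNFIB, shControl and shKDM4D cells. The range was 1.72-fold, and the libraries of shMLL1 cells at day 0 and day 5 were not separated by counting error.

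Whether the paralogs were higher where *Nfib* was knocked down was examined in shNFIB against shControl cells. At day 0, *Nfib* in shNFIB cells was at 23.3% of its level in shControl cells (log2 ratio -2.10, 95% interval -2.22 to -1.98), and at day 5 it was at 19.9% (-2.33, -2.44 to -2.22). In RPKM, no paralog was higher in shNFIB cells on either day. *Nfia* had a log2 ratio of -0.39 (-0.60 to -0.20) at day 0 and -0.87 (-1.03 to -0.71) at day 5, where its level was 54.6% of that in shControl cells. *Nfic* had -0.09 (-0.14 to -0.05) and -0.03 (-0.08 to 0.03), the latter a difference not detectable at this depth. *Nfix* had -0.08 (-0.13 to -0.03) and -0.23 (-0.28 to -0.18).

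By the 2-fold limit, 1 of the 4 members (*Nfib*) was lower in shNFIB cells and none was higher, on both days. Of all 11513 expressed genes, 6.05% were lower and 2.95% higher at day 0, and 5.67% were lower and 5.54% higher at day 5. *Nfia* at day 5 stayed inside the limit, although only 7.04% of the expressed genes had a lower ratio, and *Nfib* had 1.74% of the genes below it. The median over all expressed genes was 0.03 at day 0 and 0.09 at day 5. The direction of the paralogs at day 0 turned on the scaling. Divided by *Gapdh*, the ratios at day 0 were 0.25 for *Nfia*, 0.55 for *Nfic* and 0.56 for *Nfix*, while *Nfib* was at -1.46. *Gapdh* itself had an RPKM of 159 in shNFIB and 247 in shControl cells at day 0, so this scaling moved the median of all expressed genes by 0.64. *Actb*, another reference gene, went the other way, with 788 in shNFIB and 548 in shControl cells (log2 ratio 0.52, 0.50 to 0.55). Division by *Actb*, which was not among the scalings tried, would make these ratios lower and not higher. *Nfia*, *Nfic* and *Nfix* were below the median gene in RPKM. At day 0, 19.2% of the expressed genes had a lower ratio than *Nfia*, 38.7% than *Nfic* and 39.5% than *Nfix*. *Nfic* and *Nfix* thus lay between the quartiles of all expressed genes, -0.28 and 0.29. Division by *Gapdh* moves every gene by the same amount and cannot change these positions. In shNFIB cells at day 5 only *Nfic*, whose interval spans 0, changed sign, to 0.02 when divided by *Gapdh*.

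**Figure D2:**
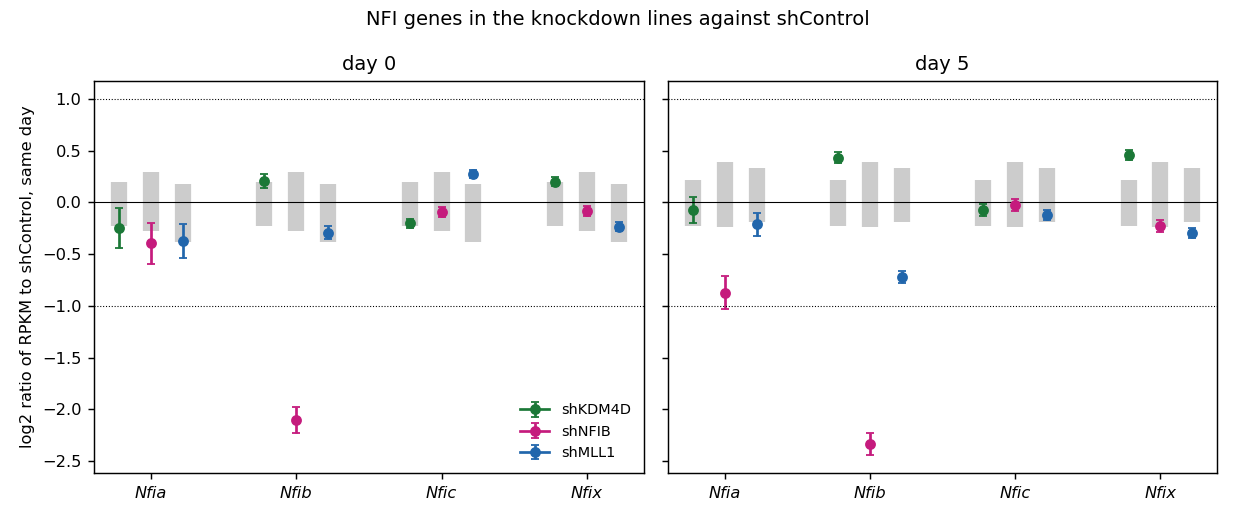
log2 ratio of RPKM to shControl cells of the same day (y axis) for each NFI gene (x axis) in the 3 knockdown lines, at day 0 (left) and day 5 (right). Points are ratios of 1 library to 1 library with exact 95% counting intervals, grey bars run from the lower to the upper quartile of the ratios of 11513 expressed genes, and dotted lines mark 2-fold. Only *Nfib* in shNFIB cells lies past 2-fold, at -2.10 and -2.33. Divided by *Gapdh*, the shNFIB points of *Nfia*, *Nfic* and *Nfix* at day 0 and of *Nfic* at day 5 and the shKDM4D points of *Nfib* and *Nfix* at day 0 change sign, and *Nfib* in shMLL1 cells at day 5 passes 2-fold.

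The family summed at day 0 and day 5 to an RPKM of 94.1 and 87.4 in shNFIB cells, 108 and 111 in shControl, 110 and 91.4 in shMLL1 and 109 and 132 in shKDM4D cells. In shNFIB cells the sum was at 87.3% of that in shControl cells at day 0 (log2 ratio -0.20, interval -0.23 to -0.16) and at 78.9% at day 5 (-0.34, -0.38 to -0.31). Without *Nfib*, the sum of the 3 paralogs had a log2 ratio of -0.09 (-0.13 to -0.06) at day 0 and -0.16 (-0.20 to -0.12) at day 5. The family total at day 0 also turned on the scaling, with 0.44 when divided by *Gapdh*. *Nfib* made up 9.19% and 15.4% of the family in shControl cells and 2.45% and 3.87% in shNFIB cells. The ratio of *Nfib* to *Nfia*, which no scale factor of a library can move, was 4.85 and 3.50 in shControl cells, 1.49 and 1.27 in shNFIB cells, and between 2.46 and 6.64 in the other libraries.

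**Figure D3:**
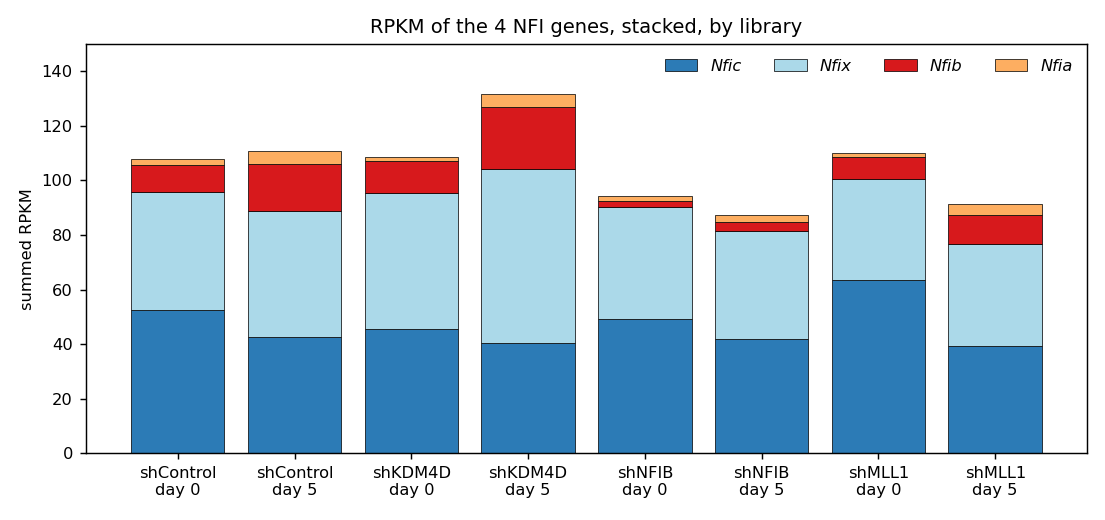
Summed RPKM of the 4 NFI genes (y axis, starting at 0) in each of the 8 libraries (x axis), stacked by gene, with no error bars because each bar is 1 library. *Nfic* and *Nfix* make up between 79.0% and 95.9% of each bar, and the total lies between 87.4 (shNFIB, day 5) and 132 (shKDM4D, day 5).

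In shKDM4D cells, no member passed 2-fold against shControl cells at day 0 or day 5, beside 6.24% and 6.44% of all expressed genes. *Nfib* and *Nfix* had log2 ratios of 0.21 (0.14 to 0.28) and 0.20 (0.15 to 0.25) at day 0, which changed to -0.19 and -0.20 when divided by *Gapdh*. At day 5 the ratios were 0.43 (0.38 to 0.49) for *Nfib* and 0.46 (0.41 to 0.50) for *Nfix*, and they were above 0 under every scaling tried. *Nfia* had -0.25 (-0.44 to -0.05) and -0.07 (-0.20 to 0.05) and *Nfic* -0.20 (-0.25 to -0.16) and -0.07 (-0.13 to -0.02). At day 5 the highest family total of the 8 libraries was found in a line whose summed adipocyte markers were at 38.6, against 777 in shControl cells. The part of fat cell content in the family total was not tested.

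In shMLL1 cells, no member passed 2-fold on either day, beside 9.09% of all expressed genes at day 0 and 9.28% at day 5. *Nfib* had a log2 ratio of -0.29 (-0.35 to -0.23) at day 0 and -0.72 (-0.78 to -0.67) at day 5, where it was the closest of the 4 to the limit and was at 60.6% of its level in shControl cells. Divided by *Gapdh*, the ratio at day 5 was -1.08 and so past 2-fold. *Nfix* had -0.23 (-0.28 to -0.19) and -0.30 (-0.34 to -0.25) and *Nfia* -0.37 (-0.53 to -0.21) and -0.21 (-0.33 to -0.10). *Nfic* had 0.28 (0.24 to 0.31) at day 0 and -0.12 (-0.17 to -0.07) at day 5. The family total had a ratio of 0.03 (0.00 to 0.05) at day 0 and -0.28 (-0.31 to -0.25) at day 5, and the former was -0.01 as a share of summed RPKM and -0.18 when divided by *Gapdh*.

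The change with differentiation was examined next, from day 0 to day 5 within each line. In shControl cells *Nfia* rose by a log2 change of 1.25 (1.10 to 1.40), or 2.38-fold, and it was the only member past 2-fold. With a pseudocount of 1 the change of *Nfia* was 0.94, below the limit. The change of *Nfib* was 0.78 (0.72 to 0.84), or 1.72-fold, that of *Nfic* -0.30 (-0.34 to -0.25) and that of *Nfix* 0.09 (0.04 to 0.13). In this comparison 13.0% of all expressed genes were higher and 8.56% lower at day 5. The family total hardly differed between the days, with a log2 change of 0.04 (0.01 to 0.07). Its sign and that of *Nfix* turned with the scaling, to -0.06 and -0.02 under quantile normalization and to -0.07 and -0.02 without the rRNA-like genes, and the total was at -0.01 under median-of-ratios scaling.

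In shKDM4D cells, *Nfia* rose by 1.42 (1.25 to 1.60). *Nfib* rose by 1.00 (0.94 to 1.06), at the limit of 2-fold itself, and was below it with a pseudocount of 0.1 or 1, under median-of-ratios scaling and without the rRNA-like genes. Thus 2 of 4 members were called higher, beside 12.8% of all expressed genes, and none lower, beside 8.44%. *Nfix* had a change of 0.34 (0.30 to 0.39) and *Nfic* of -0.17 (-0.22 to -0.11), which turned to 0.30 when divided by *Gapdh*.

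In shNFIB cells no member was called higher or lower, beside 12.6% and 4.96% of all expressed genes. *Nfia* had a change of 0.77 (0.56 to 0.98) and *Nfib* of 0.55 (0.40 to 0.70), or -0.02 when divided by *Gapdh*. *Nfic* had -0.23 (-0.29 to -0.17) and *Nfix* -0.06 (-0.12 to 0.00). In shMLL1 cells *Nfia* rose by 1.41 (1.28 to 1.54), and no member was called lower, beside 20.4% of all expressed genes higher and 6.89% lower. Under quantile normalization the change of *Nfia* in shMLL1 cells was 0.97, which is below the limit. *Nfic* had its widest change there, -0.69 (-0.73 to -0.66), while *Nfib* had 0.35 (0.29 to 0.41) and *Nfix* 0.03 (-0.01 to 0.07). The last value was between -0.18 and -0.07 under quantile, median-of-ratios and *Gapdh* scaling and without the rRNA-like genes. The median change of all expressed genes was 0.17 in shMLL1 cells and between 0.03 and 0.10 in the other lines.

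**Figure D4:**
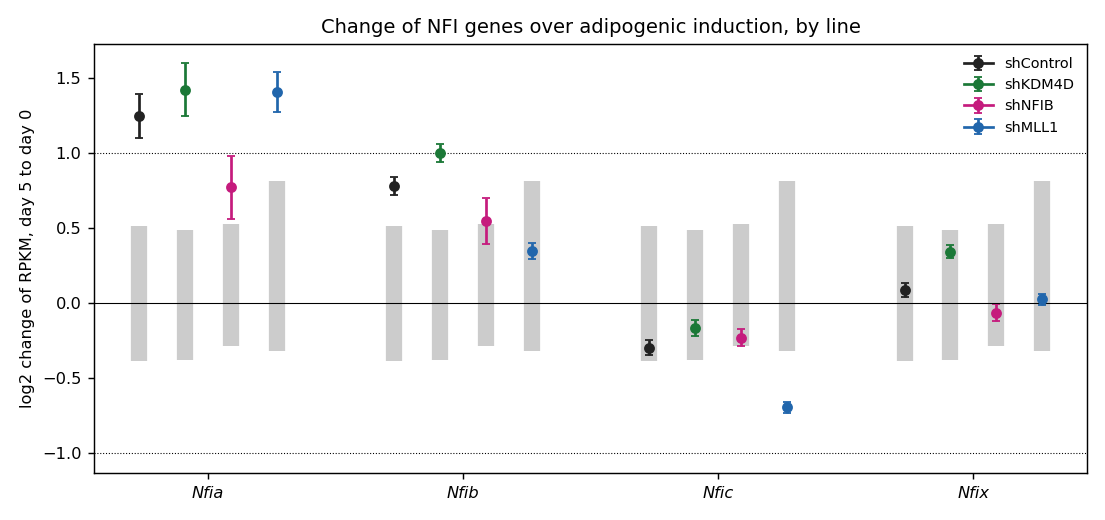
log2 change of RPKM from day 0 to day 5 (y axis) for each NFI gene (x axis) in the 4 lines. Points compare 1 library with 1 library and carry exact 95% counting intervals, grey bars run from the lower to the upper quartile of the changes of 11513 expressed genes, and dotted lines mark 2-fold. *Nfia* lies between 0.77 and 1.42 in the 4 lines and *Nfic* between -0.69 and -0.17. Divided by *Gapdh*, *Nfic* in shKDM4D, *Nfib* in shNFIB and *Nfix* in shMLL1 cells change sign, and under other scalings *Nfix* does so in shControl and shMLL1 cells.

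Over the 4 lines, the mean log2 change was 1.21 ± 0.30 (SD, n = 4 lines) for *Nfia*, 0.67 ± 0.28 for *Nfib*, -0.35 ± 0.24 for *Nfic* and 0.10 ± 0.17 for *Nfix*. The lines are different genotypes and not replicates, so the SD describes how much the lines differ. Leaving out 1 line at a time, in an alternative chosen after seeing the data, the mean lay between 1.14 and 1.36 for *Nfia*, 0.56 and 0.78 for *Nfib*, -0.41 and -0.23 for *Nfic* and 0.02 and 0.15 for *Nfix*. The value nearest to 0 was that without shMLL1 cells for *Nfic* and that without shKDM4D cells for *Nfix*. *Nfia* and *Nfib* were higher at day 5 in all 4 lines, as were 36.6% of the expressed genes, and *Nfic* was lower in all 4 lines, as were 27.9%. The exceptions under the other scalings were *Nfib* in shNFIB cells and *Nfic* in shKDM4D cells, both when divided by *Gapdh*. The summed adipocyte markers at day 5 differed by line from 12.0 to 777. In the order shNFIB, shMLL1, shKDM4D and shControl cells, the sums were 12.0, 12.3, 38.6 and 777, and *Nfia* was at 2.65, 4.19, 4.63 and 4.86. In shNFIB and shMLL1 cells the sums were mostly *Pparg* (7.48 and 7.22) and *Cebpa* (3.66 and 2.42). *Fabp4* was at 0.380, 1.75, 9.34 and 277 in the same order of the lines, and *Adipoq*, *Plin1* and *Cidec* were also lower in shNFIB than in shMLL1 cells. *Pparg*, *Cebpa* and *Lpl* (0.151 and 0.0501) went the other way between these lines, so the markers do not give them a clear order. The part of fat cell content in the level of *Nfia* was not tested.

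The size of these changes was then compared with that in shControl cells. In shNFIB cells the change of *Nfia* was smaller by a log2 difference of -0.48 (-0.74 to -0.22), and the value lay between -0.43 and -1.07 under the other scalings and pseudocounts. In shKDM4D and shMLL1 cells the difference for *Nfia* was 0.17 (-0.05 to 0.40) and 0.16 (-0.04 to 0.36), so that no difference from shControl cells was detectable at this depth, and the latter was -0.19 under quantile normalization. *Nfib* changed less in shMLL1 cells, by -0.43 (-0.51 to -0.35), and in shNFIB cells, by -0.23 (-0.39 to -0.07), and more in shKDM4D cells, by 0.22 (0.14 to 0.31). *Nfic* differed by -0.40 (-0.46 to -0.34) in shMLL1 cells, by 0.13 (0.06 to 0.20) in shKDM4D cells and by 0.07 (-0.01 to 0.14) in shNFIB cells. The last value changed to -0.03 as a share of summed RPKM and to -0.53 when divided by *Gapdh*. *Nfix* differed by 0.26 (0.19 to 0.32) in shKDM4D, -0.15 (-0.22 to -0.07) in shNFIB and -0.06 (-0.12 to 0.00) in shMLL1 cells. All of these differences use the same pair of shControl libraries.

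Genes that NFI proteins are known to bind or regulate in fat, neural, matrix and muscle cells were then counted in shNFIB against shControl cells. The list does not separate genes that are activated from genes that are repressed, so neither direction was taken as the expected one. Of 21 such genes, 9 exceeded an RPKM of 1 in either library compared at day 0, and 14 did so at day 5. At day 0 none was higher and 1 was lower by more than 2-fold, beside 2.95% and 6.05% of all expressed genes. This gene was *Eno3*, the muscle form of enolase, with an RPKM of 6.44 in shNFIB and 16.1 in shControl cells (log2 ratio -1.32, -1.55 to -1.10). At day 5 none was higher, 8 were lower and 6 were neither, beside 5.54% higher and 5.67% lower among all expressed genes. However, 5 of the 8 passed the filter through the shControl library alone, and a gene that passed in this way could only come out as lower or neither. Of the 9 genes over 1 in both libraries at day 5, 3 were lower, namely *Pparg*, *Cebpa* and *Eno3*, the last at the limit itself with an RPKM of 5.92 against 11.9 (interval of the log2 ratio -1.28 to -0.74).

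The lower genes at day 5 included the main adipogenic regulators and their products. *Cebpa*, which encodes a transcription factor that drives terminal fat cell differentiation, had an RPKM of 3.66 in shNFIB and 14.0 in shControl cells (log2 ratio -1.94, -2.20 to -1.68). *Fabp4*, a fatty acid carrier, had 0.380 against 277, and the adipokine gene *Adipoq* had 0.229 against 258. The insulin-responsive glucose transporter gene *Slc2a4* had 4 reads against 246. *Igfbp5*, which encodes an insulin-like growth factor binding protein, had 1 read against 1980 (log2 ratio -10.66, -15.97 to -8.18). *Apcdd1*, a Wnt inhibitor gene known as an NFIA target in glia, had an RPKM of 0.474 against 2.75. Most of these genes were also lower in the other knockdown lines. Their log2 ratios to shControl cells at day 5 are given for shKDM4D and then shMLL1 cells. *Pparg* had -1.40 and -1.59, *Cebpa* -1.37 and -2.53, *Fabp4* -4.89 and -7.31 and *Adipoq* -4.84 and -8.82. *Slc2a4* had -3.25 and -7.34 and *Igfbp5* -6.79 and -4.78. By contrast, *Apcdd1* had -2.25 and -0.12, and *Eno3* had -0.23 and 0.76.

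Other genes of this list moved little or were higher in shNFIB cells. *Ezh2* had a log2 ratio of -0.40 at day 0 and 0.04 at day 5. *Cdkn1a*, the gene of the cell cycle inhibitor p21, had a log2 ratio of 0.51 (0.44 to 0.59) at day 0 and 0.69 (0.60 to 0.78) at day 5. *Sox9* had -0.29 and -0.15 at an RPKM of 48.4 to 133 in these 4 libraries, and *Col1a2*, a fibrillar collagen gene, had -0.33 and -0.07. From day 0 to day 5 in shControl cells, 3 of the 8 genes over 1 in both libraries were higher and 1 was lower (*Ezh2*), beside 13.0% and 8.56% of all expressed genes. A further 6 genes passed through the day 5 library alone. All 6 were higher, but a gene that passed in this way could only come out as higher or neither. In shNFIB cells, 2 of the 8 genes over 1 in both libraries were higher and none was lower, beside 12.6% and 4.96%. A further 2 genes passed there through 1 library only, *Ppargc1a* through day 5, which was higher, and *Apcdd1* through day 0, which was lower. The list shares *Pparg*, *Cebpa*, *Fabp4* and *Adipoq* with the adipocyte markers, all 7 of which were lower in shNFIB than in shControl cells at day 5 (summed RPKM 12.0 against 777), although 5 of them passed the filter through the shControl library alone. The part of fat cell content in these counts was not tested.

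The study examined NFIB together with KDM4D, MLL1 and the subunits menin, WDR5, ASH2L and RBBP5 of MLL1 complexes, which methylate histone H3 at a lysine residue. DPY30, a core subunit of such complexes, was added from general knowledge. Of their 7 genes, 6 had an RPKM over 1, and none was called higher or lower in shNFIB cells at either day. Of all expressed genes, 2.95% were higher and 6.05% lower at day 0, and 5.54% and 5.67% at day 5. With 6 genes, a count of 0 is near these shares. The median log2 ratio was 0.16 at day 0 and 0.21 at day 5. *Kmt2a* had 0.29 at day 0 and -0.49 at day 5, *Men1* had 0.13 and 0.39, and *Wdr5* had 0.36 and 0.53. *Kdm4d*, the gene below the filter, was covered at day 0 and day 5 by 2 and 13 reads in shControl and by 6 and 7 reads in shNFIB cells. In shKDM4D cells it had 1 and 4 reads, too few to check the knockdown of that line here. *Kmt2a*, the target in shMLL1 cells, had log2 ratios there of -1.37 at day 0 and -1.70 at day 5.

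Of the genes annotated as overlapping or adjacent to a member, 16 were listed and 5 had an RPKM over 1 in shNFIB or shControl cells at day 5. Of these 5, 1 was higher and 1 lower in shNFIB cells, beside 5.54% and 5.67% of all expressed genes. The lower one passed through the shControl library alone. *Gm5860*, a lincRNA next to *Nfib* on the opposite strand, had an RPKM of 0.256 in shNFIB and 1.20 in shControl cells at day 5 (log2 ratio -2.23, -3.30 to -1.29), which rests on 11 and 63 reads. *G430095P16Rik*, inside *Nfix* on the opposite strand, had 4.20 against 1.58 (1.41, 0.66 to 2.21), which rests on 48 and 22 reads. It shares 137 exon bases with *Nfix*, and although the library kit was a stranded one, the sources used here do not say whether the counting used the strand. Reads in these bases may therefore belong to either gene. The remaining 3 genes, *Zdhhc21*, *Trmt1* and *Dand5*, had log2 ratios of 0.18, 0.28 and -0.04 at day 5. In shKDM4D and then shMLL1 cells at day 5, *Gm5860* had log2 ratios to shControl cells of -0.01 and 0.16, and *G430095P16Rik* had 0.42 and 1.91.

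The members differed in their pattern over the 8 libraries. On the log2(RPKM + 0.1) scale, Pearson's r was 0.61 between *Nfia* and *Nfib*, 0.63 between *Nfib* and *Nfix*, -0.76 between *Nfia* and *Nfic* and between -0.39 and 0.39 for the other 3 pairs. These are descriptions over 8 libraries that share lines and days. Among 2791 or 2792 other genes with a mean RPKM of at least 5 and a range of at least 1, the 3 most like each member are named. Because these genes were chosen by likeness over the same libraries, an order of libraries shared with the member follows largely from the choice. The choice depends on the measure. By Spearman's rank correlation, 1 of the 3 remained among the 3 most alike for *Nfib* and for *Nfix* and 0 for *Nfia* and for *Nfic*. Under quantile normalization 2 remained for *Nfib* and for *Nfix* and 1 for *Nfia* and for *Nfic*. For *Nfia* they were *Zfp516* (r = 0.99), a zinc finger gene known from brown fat that ranked only 330 by Spearman's measure, *Akr1e1* (0.99), an aldo-keto reductase gene, and *Appl2* (0.98), an endosomal adaptor gene. All 3 had, like *Nfia*, their 4 highest libraries at day 5, with the shNFIB library as the lowest of those. *Appl2* was at 44.2 in shControl and 26.0 in shNFIB cells at day 5, and between 8.97 and 17.6 at day 0.

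For *Nfib* the most alike genes were *Emb* (0.98), which encodes the membrane glycoprotein embigin, *Plac9b* (0.98) and *G6pdx* (0.95), the entry enzyme of the pentose phosphate pathway. *Emb* had an RPKM at day 0 and day 5 of 1.47 and 2.96 in shNFIB cells, 10.7 and 23.8 in shControl, 13.7 and 20.4 in shKDM4D and 7.18 and 13.5 in shMLL1 cells. Its lowest libraries were those of shNFIB cells, which the choice by likeness to *Nfib* favours. *Plac9b* had 7.73 and 9.45 in shNFIB cells and 18.3 to 39.0 in the other libraries, and it can share reads with its near-identical copy *Plac9a*. For *Nfic* they were *Fubp1* (0.99), *Tardbp* (0.95) and *Pa2g4* (0.94), which encode proteins that bind nucleic acids, each highest in shMLL1 cells at day 0. For *Nfix* they were *Kif16b* (0.96), a kinesin gene, *1700020I14Rik* (0.91) and *Ddr2* (0.90), a collagen receptor gene, each highest in shKDM4D cells at day 5 and lowest in shMLL1 cells at day 0.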

How the data were processed

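RNA-seq libraries of the 8 conditions were prepared from total RNA with a stranded SMARTer kit. The authors mapped the reads to GRCm38 (mm10) in CLC Genomics Workbench 11.0.1, with costs of 2 for a mismatch and 3 for an insertion or a deletion and fractions of 0.8 for length and similarity, and deposited RPKM per gene. The annotation and strand setting of the counting are not given in the sources used here. Whole reads were recovered as RPKM times GENCODE M21 exon length times mapped reads, and 96.2% to 96.6% of the values from 1 to 1000 reads were whole to within 0.02 (members to within 1.3e-06). Log2 ratios were taken without a pseudocount, and a gene was counted as expressed if any library exceeded an RPKM of 1. Intervals are exact (Clopper-Pearson, conditional on the summed reads; Poisson for levels; conditional odds ratio for differences of changes), except for family sums (delta method). No test was run, since there is 1 library per condition. The scripts were tested on simulated data (Python 3.11.15, numpy 2.4.6, scipy 1.17.1). Alternatives were quantile, median-of-ratios, *Gapdh* and summed-RPKM scaling, leaving out 2 rRNA-like genes, pseudocounts, other filters and a 1.5-fold limit. Named genes are the 4 members, the 3 genes most correlated with each, up to 6 called genes of each list by size, and further list genes as examples, chosen after their values were seen. The members, lists and rules were chosen with earlier results of these data known.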

Additional observations from a re-analysis of the deposited data

Results flagged for a closer look

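Some effects took opposite directions in the conditions compared. None of these differences was tested, because each effect rests on 1 library against 1 library. *Nfix* had a log2 change from day 0 to day 5 of -0.06 in shNFIB and 0.09 in shControl cells, a difference of -0.15. The family total had -0.11 in shNFIB and 0.04 in shControl cells, a difference of -0.15. In shMLL1 cells the total changed by -0.27, a difference of -0.31 from shControl cells. Against shControl cells, the total in shMLL1 cells was at 0.03 at day 0 and -0.28 at day 5, which is the same difference of -0.31. *Nfic* in shMLL1 cells was at 0.28 at day 0 and -0.12 at day 5, a difference of -0.40, and it was the largest of these. The change over time of the total and of *Nfix* in shControl cells turned its sign under other scalings. The total in shMLL1 against shControl cells at day 0 did so as well, to -0.01 as a share of summed RPKM and -0.18 when divided by *Gapdh*.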

How the results depend on the processing

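No paired analysis was possible because each condition has 1 library and the labels give no replicate numbers to use as a block. The changes over time are paired within a line, and their mean over the 4 lines, also without each line, was given as a description. Divided by *Gapdh*, the log2 ratio of *Nfib* in shNFIB to shControl cells at day 0 was -1.46, the family total there was 0.44 at day 0 and -0.30 at day 5, and 1 member (*Nfib*) was called lower in shMLL1 cells at day 5. With a pseudocount of 1, *Nfib* was at -1.72 and -2.04 at day 0 and day 5 in shNFIB cells, and 0 members were called higher over time in shControl cells. With quantile normalization *Nfib* was at -2.45 at day 5. The family total in shNFIB cells was -0.14 at day 0 as a share of summed RPKM and -0.42 at day 5 under median-of-ratios scaling. Its change over time in shControl cells was -0.058 under quantile normalization, -0.013 under median-of-ratios scaling, 0.12 as a share of summed RPKM and -0.072 without the rRNA-like genes. The members called higher over time in shKDM4D cells numbered 1 under median-of-ratios scaling, without the rRNA-like genes and with a pseudocount of 0.1 or 1, and those in shMLL1 cells 0 under quantile normalization. With a limit of 1.5-fold, 2 members were lower in shNFIB cells at day 5, 1 was lower in shMLL1 cells at day 5, 2 were higher over time in shControl and 1 in shNFIB cells, and 1 was lower over time in shMLL1 cells. The other counts of members did not change. The cause of these shifts was not tested, and depth limits *Nfia* most, at 316 to 1740 reads.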
